A study of Mus musculus with 4 samples.

Results

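The genes described here are 34 genes for nucleolar proteins that assemble ribosomes and for RNA polymerase I, the enzyme that transcribes the ribosomal RNA genes. They were chosen by name, with earlier results of these data known, and all 34 were found by symbol among the 34866 genes of the deposited table. The table holds B220+ IgM+ splenocytes of 2 sick mice (tumor #1 and tumor #2), each sorted into a Tom+ and a Tom- fraction, for 4 libraries in all and 1 mouse per tumor. Both mice were λ-MYC +/TG and R26tdTom +/ki and carried a Cre knock-in allele, so each library, Tom- included, carries a human MYC gene under λ light chain regulatory sequences together with both alleles of the tracer. Cre switches on the Tomato protein for good, so Tom+ cells had expressed Cre at some time, while Tom- cells of the same spleen had not done so to the point of recombination. The labels give no age of the mice, and no library without λ-MYC was analysed here, so levels cannot be set against those of other B cells.

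Ribosomes are built in the nucleolus. RNA polymerase I, with the initiation factors UBF (Ubtf) and TIF-IA (Rrn3), transcribes a long precursor RNA, small nucleolar RNA-protein particles (snoRNPs) of the box C/D and box H/ACA types place methyl groups and pseudouridines on it, and separate sets of assembly factors then fold and cleave it into the small (40S) and the large (60S) subunit. MYC is known for raising the expression of many of these genes, and enlarged nucleoli are a classical feature of cells with high MYC.

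MYC binds DNA with its partner MAX at the E-box CACGTG, a palindrome that reads the same on both strands. Promoter windows from RefSeq on GRCm38.p6, from 250 bases before to 50 bases after a start site, were at hand for 29 of the 34 genes. The E-box occurred in the windows of 5 of these genes (17.2%) and of 20.9% of 91 other genes of the pathway, from the lists described below. It occurred in the windows of 12.4% of the 8011 tested protein-coding genes with a window, and of 8.09% of all 27025 genes with a window. Its sequence context is shown for each of these 5 genes, because they are the ones whose windows hold the canonical site, with the E-box in capitals and the offset of its first base counted from the start site (negative before it).
Nop2, offset -60 (chr6:125131811-125131840, plus strand): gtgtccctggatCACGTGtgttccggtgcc
Rrn3, offset -215 (chr16:13780472-13780501, plus strand): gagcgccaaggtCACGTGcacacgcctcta
Rrn3, offset -48 (chr16:13780639-13780668, plus strand): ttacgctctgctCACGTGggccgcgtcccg
Pes1, offset 2 (chr11:3963965-3963994, plus strand): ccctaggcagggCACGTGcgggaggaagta
Wdr43, offset 17 (chr17:71616220-71616249, plus strand): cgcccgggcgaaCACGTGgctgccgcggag
Utp20, offset 37 (chr10:88826765-88826789, minus strand): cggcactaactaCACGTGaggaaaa
The related hexamer CACGCG, searched on both strands, occurred in the windows of 12 of the 29 genes (41.4%), of 29.7% of the 91 other pathway genes and of 20.9% of the tested protein-coding genes. The median G+C content of the windows was 57% for the 29 genes and 60.7% for the tested protein-coding genes. These matches are letters in a window and were not tested as binding sites.

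The abundance of each gene was given by the authors in transcripts per 1000000 (TPM), a unit per transcript length that lets levels of different genes be set side by side within a library. Because TPM keeps no number of reads, the depth of the libraries is unknown. Where a pair of values is given for a tumor, Tom- cells stand first. Defining B cell genes were detected in all 4 libraries at unequal levels, as Cd79a was at 147 and 120.4 TPM in tumor #1, against 346 and 306 TPM in tumor #2, while Ms4a1 was at 32.9 and 20.5 TPM, against 263 and 209 TPM. The summed TPM of markers of other cells that the gate could hold ranged from 1.23 to 8.15 for 5 T cell genes, from 2.64 to 13.2 for 6 myeloid genes, from 0.619 to 21.5 for 6 erythroid genes (21.5 and 17.6 in tumor #1, mostly Hbb-bs, with 3 genes at 0 throughout, Hba-a1 and Hba-a2 among them) and from 0.193 to 0.978 for 4 NK cell genes (Ncr1 and Nkg7 at 0 throughout). The 5 plasma cell genes summed to between 30.2 and 34.7 TPM in the other three libraries and to 260 TPM in Tom+ cells of tumor #2, mostly from Jchain (209 TPM). In bulk samples, fewer cells of a type and less RNA per cell cannot be told apart.

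The 34 genes together took 0.805% and 0.871% of all TPM in tumor #1, and 0.718% and 0.696% in tumor #2. Their median level lay between 70.0 and 80.5 TPM per library, where the median of the 11339 genes tested, those reaching 1 TPM in 2 or more libraries, lay between 10.1 and 13.1 TPM. All 34 passed this limit. Levels spanned a wide range, from Npm1, which ranked 78 among all genes tested, to Bysl, which ranked 7348. Npm1, Nop56, Ncl and Nop58 alone made up between 59.2% and 66.2% of the summed TPM. In all 4 libraries, 10 genes were above 100 TPM and 2, Rrp12 and Bysl, were below 10 TPM.

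**Figure D1:**
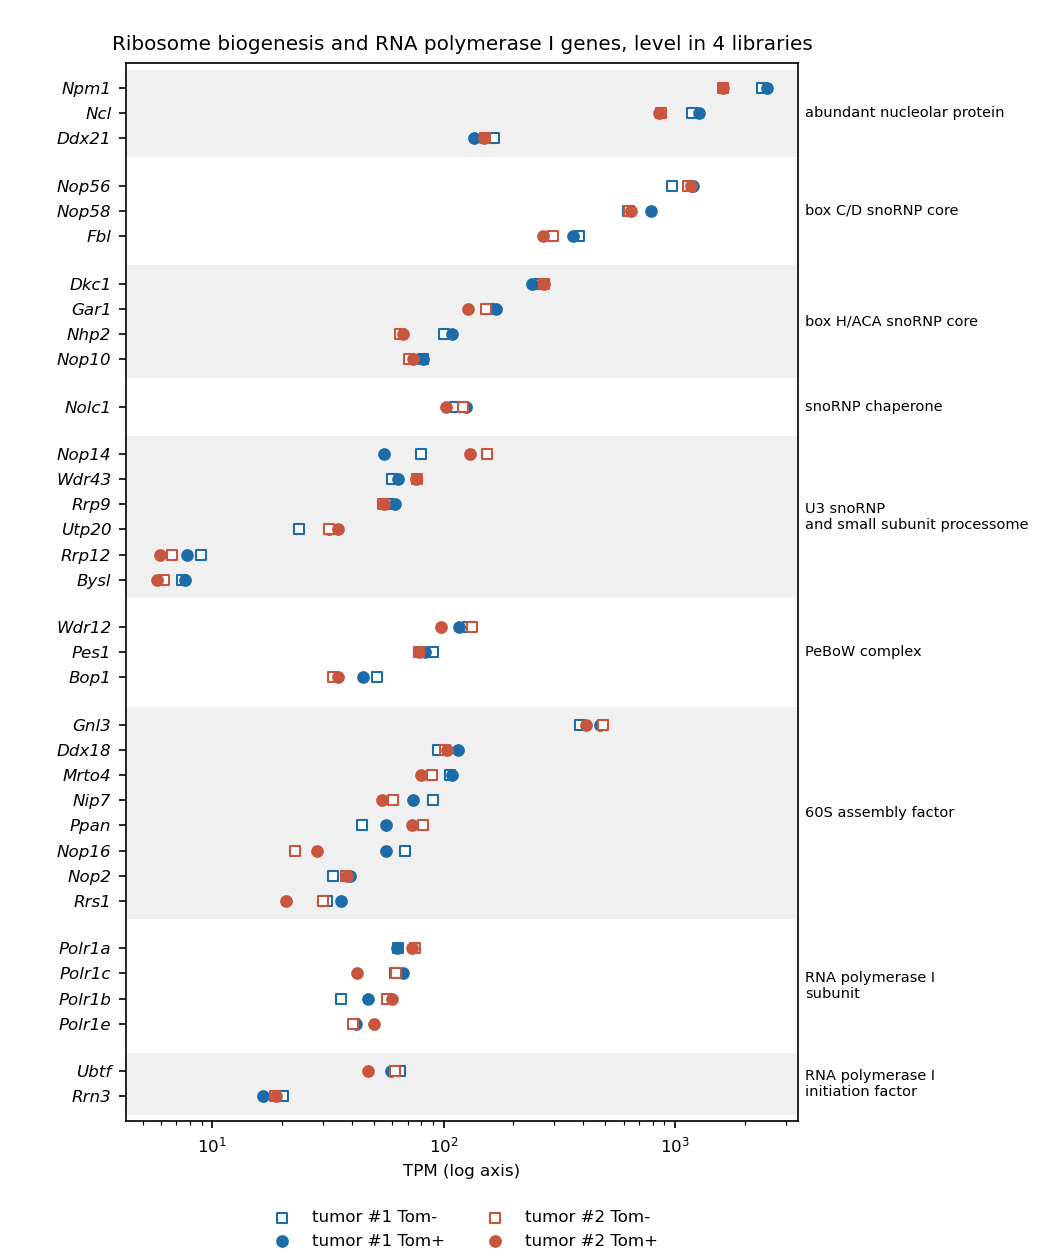
Level of each of the 34 genes in TPM on a log axis, grouped by role, with open squares for Tom- and filled circles for Tom+ cells, blue for tumor #1 and red for tumor #2. The points of a gene lie close together beside the span between genes, from Bysl below 10 TPM to Npm1 at 1607 TPM or more, and Nop14 and Nop16 show the widest gaps between the tumors.

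Among the abundant nucleolar proteins, Npm1 encodes nucleophosmin, a histone and ribosome chaperone that forms the outer part of the nucleolus. It was at 2370 and 2507 TPM in tumor #1, against 1607 and 1615 TPM in tumor #2, so both libraries of tumor #1 were above both of tumor #2. Ncl, which encodes nucleolin, a protein that binds the precursor RNA, followed the same order, with 1178 and 1270 TPM in tumor #1, against 873 and 848 TPM in tumor #2. Npm1 was between 1.84 and 2.01 times Ncl in the 4 libraries. Ddx21, an RNA helicase that links RNA polymerase I transcription and processing, was at 165 and 136 TPM in tumor #1, against 152 and 150 TPM in tumor #2, and the tumors overlapped.

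The level of Npm1 depended on how reads were divided with a pseudogene. Gm14681, annotated as a processed pseudogene of 411 bases (GRCm38 chromosome X, 66778442 to 66778852, minus strand), matched an Npm1 transcript over its whole length at 97.4% identity. It was listed at 1879 and 1909 TPM in tumor #1, against 1058 and 935 TPM in tumor #2. These values were between 57.9% and 79.3% of the TPM of Npm1 itself in the same library. The 7 other pseudogenes matched to Npm1 reached at most 4.53 TPM. With all 8 added, pseudogenes held between 36.8% and 44.4% of the TPM of the family, while for the 6 other members with a matched pseudogene they held at most 0.429%. As TPM is per transcript length and Gm14681 is short, these are not shares of reads. Reads of 60 bases from such a copy and from Npm1 are hard to separate, so the level of Npm1 is uncertain, but tumor #1 was above tumor #2 for the gene, for Gm14681 and for their sum.

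**Figure D2:**
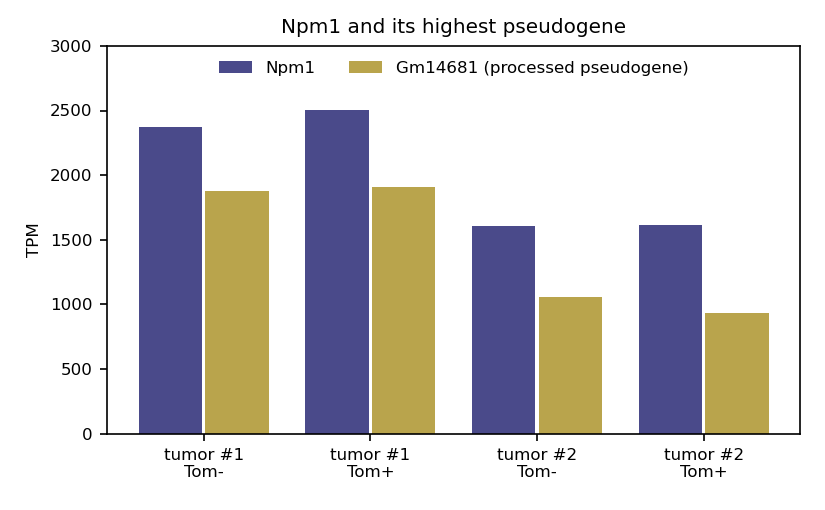
TPM of Npm1 and of the processed pseudogene Gm14681 in each of the 4 libraries, 1 bar per gene and library on an axis that starts at 0. Both are higher in the libraries of tumor #1 (2370 and 2507 TPM for Npm1) than in those of tumor #2 (1607 and 1615 TPM).

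Box C/D snoRNPs guide methylation of the ribosomal RNA, with fibrillarin (Fbl) as the methyltransferase and Nop56 and Nop58 as the paired scaffold proteins. Nop56 was at 965 and 1195 TPM in tumor #1, against 1140 and 1174 TPM in tumor #2. Nop58 was at 627 and 790 TPM in tumor #1, against 635 and 647 TPM in tumor #2. For both scaffold genes Tom- cells of tumor #1 were the lowest library and Tom+ cells of tumor #1 the highest. Fbl was at 384 and 362 TPM in tumor #1, against 297 and 270 TPM in tumor #2, with no overlap between the tumors. The transcripts were therefore not in equal amounts, with Nop56 between 2.52 and 4.35 times and Nop58 between 1.64 and 2.40 times Fbl, while the ratio of Nop56 to Nop58 stayed between 1.51 and 1.81.

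Box H/ACA snoRNPs convert uridines to pseudouridines through dyskerin (Dkc1) and its partners Nop10, Nhp2 and Gar1, and the same proteins are found in telomerase. Dkc1 was the most abundant of the 4 in each library, at 260 and 240 TPM in tumor #1, against 271 and 270 TPM in tumor #2. Nhp2 was at 100.2 and 109 TPM in tumor #1, against 64.9 and 66.9 TPM in tumor #2. The ratio of Dkc1 to Nhp2 was accordingly 2.59 and 2.21 in tumor #1 and 4.18 and 4.04 in tumor #2. Gar1 was at 156 and 168 TPM in tumor #1, against 152 and 127 TPM in tumor #2. Nop10, the smallest protein of the particle, was nearly level at 81.3 and 81.1 TPM in tumor #1, against 70.7 and 73.9 TPM in tumor #2. Nolc1, a chaperone that shuttles snoRNPs to the nucleolus, lay between 103 and 125 TPM.

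Most snoRNAs of mammals are cut from introns of other genes. By the GENCODE M21 annotation, 7 of the 34 genes (20.6%) held a snoRNA gene on the same strand within their bounds, against 1.99% of the 10079 tested protein-coding genes, a description with no test. Nop56 held 5, among them Snord57 and Snord110, Nop58 held 4, among them Snord11 and Snord70, and Ncl, Gnl3 and Wdr43 held 3 each. Ppan held 2 and Dkc1 held 1. The snoRNAs themselves are not analysed here, since the table lists 0 genes of that type.

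Factors of the small subunit processome, the large particle that assembles on the precursor RNA, spanned levels from 5.75 to 154 TPM. Nop14, a core protein of that particle, was at 79.7 and 55.1 TPM in tumor #1, against 154 and 130 TPM in tumor #2. Wdr43, a subunit of its UtpA part, was at 59.6 and 63.4 TPM in tumor #1, against 76.4 and 76.03 TPM in tumor #2, and Utp20, a very large scaffold protein, was at 23.8 and 32.0 TPM and at 32.1 and 34.9 TPM. In each of these 3 genes tumor #2 was above tumor #1, for Utp20 by a small margin between the nearest libraries. Rrp9, a protein of the U3 snoRNP, lay between 54.7 and 61.9 TPM. Rrp12, which takes part in export of the subunits, was at 8.95 and 7.79 TPM in tumor #1, against 6.70 and 5.97 TPM in tumor #2. Bysl, a late factor of the small subunit, was lowest of all, at 7.44 and 7.59 TPM and at 6.19 and 5.75 TPM. Its exons share 361 bases with exons of Ccnd3 on the opposite strand, a gene at 33.1 to 66.7 TPM, and whether the authors' quantification used strand is not given in the sources used here. The other 8 overlaps of members' exons with exons of another gene in the table covered at most 138 bases.

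The PeBoW complex, made of Pes1, Bop1 and Wdr12, is needed for cleavage of the precursor of the large subunit RNA. Wdr12 was at 127 and 117 TPM in tumor #1, against 132 and 96.9 TPM in tumor #2, Pes1 was at 90.01 and 83.3 TPM and at 78.5 and 78.2 TPM, and Bop1 was at 51.4 and 44.9 TPM and at 33.3 and 35.1 TPM. The order Wdr12, Pes1, Bop1 held in all 4 libraries. Among the other large subunit factors, Gnl3, which encodes nucleostemin, a GTP-binding protein of proliferating cells, was far above the rest, at 387 and 473 TPM in tumor #1, against 489 and 413 TPM in tumor #2. Nop16 was at 67.9 and 56.5 TPM in tumor #1, against 22.7 and 28.4 TPM in tumor #2. Nip7 was at 90.1 and 73.5 TPM in tumor #1, against 60.4 and 54.1 TPM in tumor #2. Both were higher in tumor #1 with no overlap. Ppan went the other way, with 44.2 and 56.1 TPM in tumor #1, against 81.5 and 72.8 TPM in tumor #2. Ddx18, an RNA helicase (94.2 to 115 TPM), Mrto4, a factor related to the ribosomal stalk protein P0 (80.2 to 109 TPM), Nop2, a methyltransferase of the large subunit RNA (33.2 to 39.2 TPM), and Rrs1, a factor for loading of the 5S particle (20.9 to 36.1 TPM), make up the rest of this group.

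For RNA polymerase I, the largest subunit Polr1a was at 63.3 and 62.8 TPM in tumor #1, against 75.5 and 73.1 TPM in tumor #2. The second subunit Polr1b, which completes the active center, was at 35.9 and 46.9 TPM in tumor #1, against 56.9 and 59.96 TPM in tumor #2. Both catalytic subunits were higher in tumor #2 with no overlap, and the ratio of Polr1a to Polr1b was 1.76 in Tom- cells of tumor #1 and between 1.22 and 1.34 in the other three libraries. Polr1c, which RNA polymerase I shares with RNA polymerase III, was at 61.9 and 66.6 TPM in tumor #1, against 62.3 and 42.1 TPM in tumor #2, so 1 library lay apart. Polr1e, a subunit of the polymerase that works in initiation and elongation, was at 40.8 and 41.8 TPM in tumor #1, against 40.4 and 49.8 TPM in tumor #2, highest in the same library, Tom+ cells of tumor #2. Of the initiation factors, Ubtf was at 64.9 and 59.1 TPM in tumor #1, against 61.5 and 47.3 TPM in tumor #2, and Rrn3 was between 16.6 and 20.1 TPM.

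Tom+ and Tom- cells of the same mouse were compared to ask whether cells with a history of Cre expression differ in these genes. The 34 genes differed little between them. Differences in log2(TPM + 1), a scale that slightly understates changes of low genes, ran from -0.38 for Nop14 to 0.26 for Utp20, and their median was -0.031, where the median of all genes tested was -0.033. The median size of the difference was 0.0995 for the 34 genes and 0.178 for all genes tested. All genes tested had a lower median level, and these sizes were not matched for level. In tumor #1 the median was 0.057, with 20 of 34 genes higher in Tom+ cells (48.6% of all genes tested), and in tumor #2 it was -0.012, with 14 of 34 higher (42.9%).

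By limma's moderated test with the mouse as a block, 0 of the 34 genes had an adjusted p-value under 0.05 (0% of the 11339 genes tested), and the smallest adjusted p-value was 0.936. At an unadjusted p-value under 0.05, 0 were higher (2.04% of all genes tested) and 0 were lower in Tom+ cells (2.64%), and the smallest unadjusted value was 0.079 for Nop14. In Tom+ cells of both tumors 10 genes were higher (21.6% of all genes tested) and 10 were lower (29.5%), while 14 went in opposite directions (47.3%). The smallest two-sided p-value that 2 mice allow in an exact permutation test is 0.5. The limma p-values rest in part on the spread between 2 pairs of libraries (1 residual degree of freedom per gene). That spread was moderated toward the trend over all genes tested, which counts for 2.21 prior degrees of freedom.

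**Figure D3:**
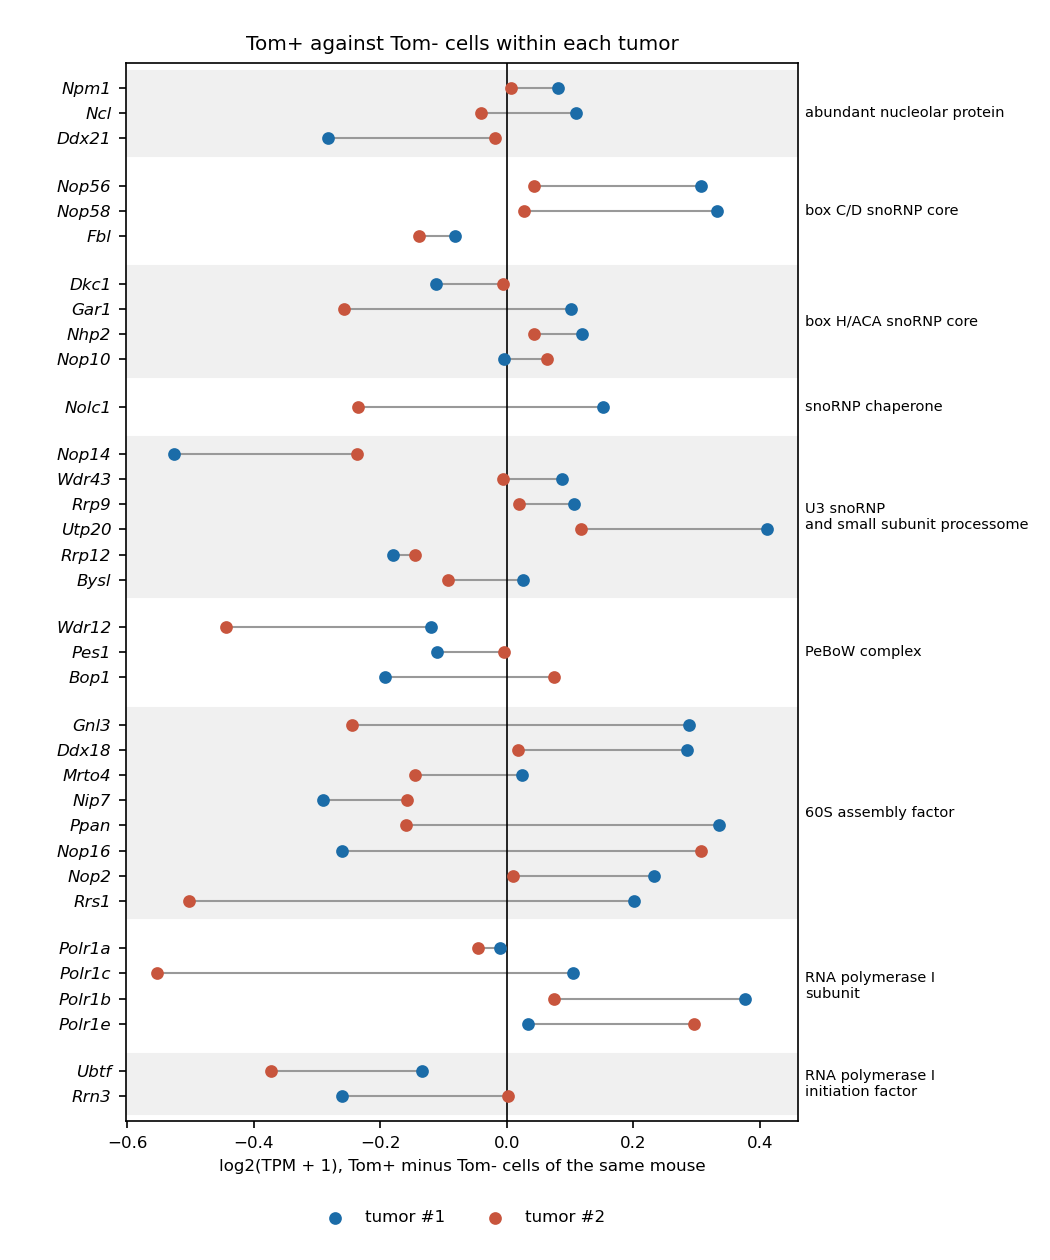
Difference in log2(TPM + 1) between Tom+ and Tom- cells of the same mouse for each of the 34 genes, with blue points for tumor #1, red points for tumor #2, and a line at 0. Points lie on both sides of the line, and the tumors are on the same side for 20 genes and on opposite sides for 14.

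Among genes higher in Tom+ cells of both tumors, Utp20 had the largest difference (0.26, SE 0.17, adjusted p = 0.936 by limma), with 0.41 in tumor #1 and 0.12 in tumor #2. Polr1b followed with 0.23 (SE 0.16), from 0.38 and 0.075. The scaffold genes of the box C/D particle were next, Nop58 with 0.18 (SE 0.14) and Nop56 with 0.18 (SE 0.13), and for both the difference lay almost wholly in tumor #1 (0.33 and 0.31, against 0.027 and 0.043 in tumor #2). Their partner Fbl was lower in both tumors (-0.083 and -0.14). Polr1e had 0.16 (SE 0.16), mainly from tumor #2 (0.30). Among genes lower in Tom+ cells of both tumors, Nop14 had -0.38 (SE 0.15, adjusted p = 0.936 by limma), with -0.53 in tumor #1 and -0.24 in tumor #2. Wdr12 had -0.28 (SE 0.15), Ubtf -0.25 (SE 0.15), Nip7 -0.22 (SE 0.14) and Rrp12 -0.16 (SE 0.19). Within RNA polymerase I, Polr1b and Polr1e were higher and Polr1a was within 0.05 of no difference in both tumors, with a mean of -0.029 that turned positive under each of the 3 other scalings. Polr1c was higher in tumor #1 (0.10) and lower in tumor #2 (-0.55). None of these subunits passed the test. The summed TPM of the 5 plasma cell genes, mostly Jchain, was highest in Tom+ cells of tumor #2, where Polr1c was lowest. Of these genes only Sdc1 was not highest there, at 1.95 and 1.78 TPM in tumor #1, against 0 and 0.428 TPM in tumor #2. The part of plasma cell genes in these differences was not tested.

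The libraries of a tumor come from 1 mouse, so tumor #2 and tumor #1 can be compared only as values, with no test, and the mouse, the tumor and the handling of its libraries cannot be told apart. Here the differences were larger. Both libraries of tumor #2 were above both of tumor #1 for 7 genes (44.8% of all genes tested) and below for 15 genes (23.7%), and the ranges overlapped for 12. The 34 genes had a median difference of -0.12 (tumor #2 minus tumor #1 in log2(TPM + 1)), while that of all genes tested was 0.20. Of the 34, 28 lay below the latter (50% of all genes tested). The median of all genes fell to 0.143 with a mean TPM of at least 5 and to 0.108 with no filter, while that of the 34 genes stayed the same. The median of the 34 genes was -0.051 in Tom- cells and -0.23 in Tom+ cells. Its size rests in part on Tom+ cells of tumor #2, without which it was -0.038, and it was -0.042 with protein-coding rescaling.

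**Figure D4:**
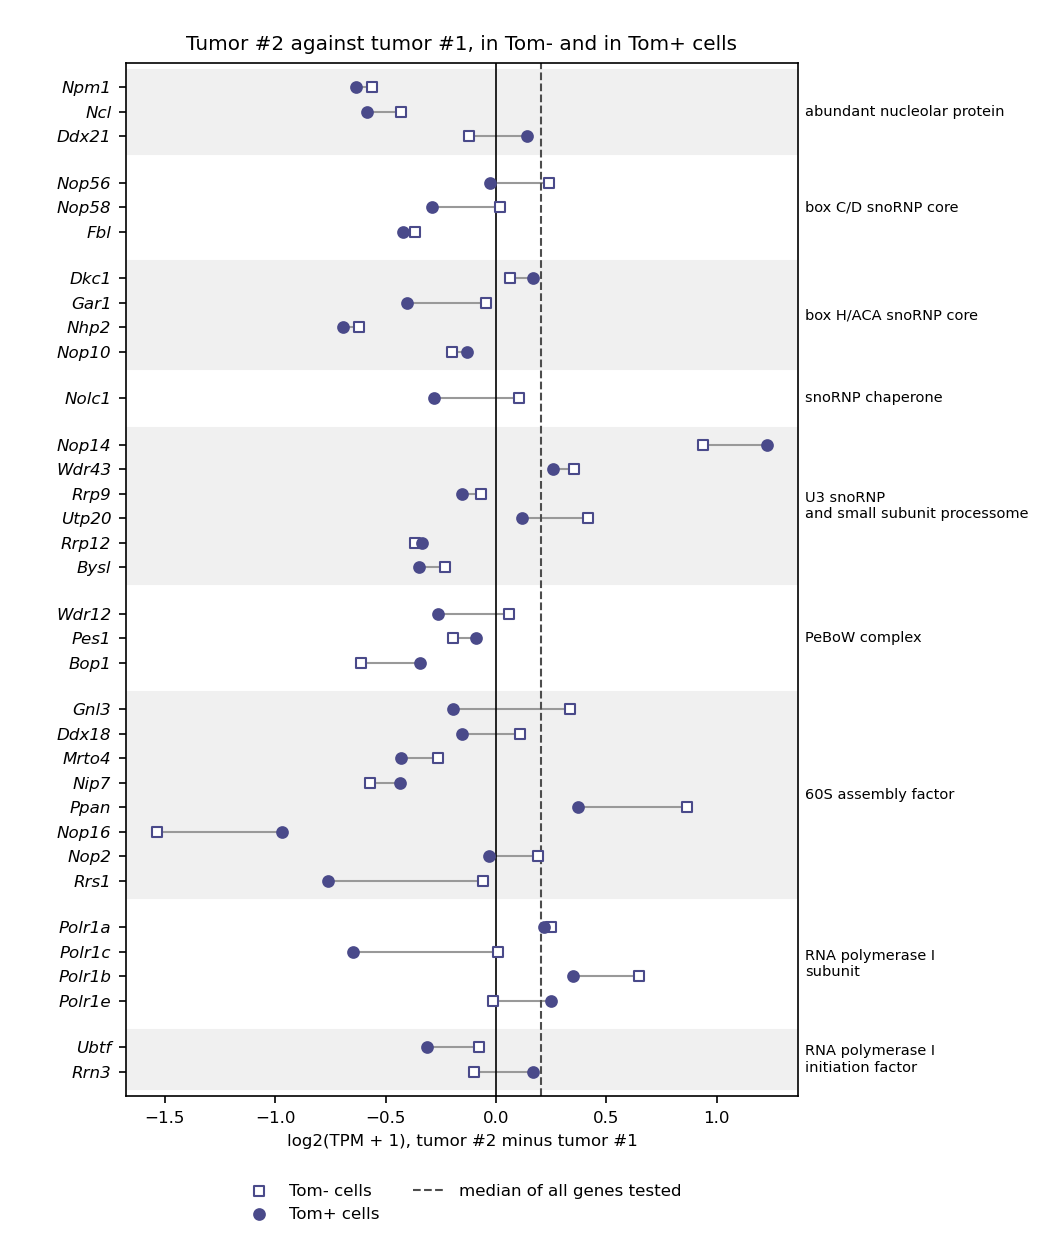
Difference in log2(TPM + 1) between tumor #2 and tumor #1 for each of the 34 genes, with open squares for Tom- cells, filled circles for Tom+ cells, a solid line at 0 and a dashed line at the median of all genes tested (0.20). Most genes lie to the left of the dashed line, Nop16 the farthest, while Nop14, Ppan, Polr1b, Wdr43 and, narrowly, Polr1a lie to its right in both kinds of cells.

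The split between genes above and below depended on the scale. With libraries scaled by their median ratio, the median of all genes moved from 0.20 to 0.011, and 5 of the 34 genes were above and 24 below. With quantile normalization 7 were above and 18 below, and with protein-coding genes other than immunoglobulin and mitochondrial genes rescaled to 1000000, 7 and 12. Relative to the median of all genes, 28 of 34 were below with the deposited TPM, with median scaling and with protein-coding rescaling, and 21 with quantile normalization. Median scaling and protein-coding rescaling apply 1 factor per library, which moves its genes nearly together. The equal counts of 28 are therefore not separate checks. Under all 4 scalings, tumor #2 was above tumor #1 without overlap for 5 genes, Nop14, Polr1a, Polr1b, Wdr43 and Ppan, and below for 12, Ncl, Npm1, Fbl, Nop16, Nhp2, Gar1, Bop1, Rrp12, Rrs1, Mrto4, Nip7 and Bysl.

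Nop16 had the largest difference, 2.43 times higher TPM in tumor #1 over both kinds of cells (-1.54 in Tom- and -0.97 in Tom+ cells on the log2 scale). Nhp2 was 1.59 times, Npm1 1.51 times, Ncl 1.42 times and Nip7 1.43 times higher in tumor #1. In the opposite direction, Nop14 was 2.11 times higher in tumor #2 (0.94 in Tom- and 1.23 in Tom+ cells), Ppan 1.54 times, Polr1b 1.41 times, Wdr43 1.24 times and Utp20 1.20 times. By role, all 3 abundant nucleolar proteins, all 3 box C/D and all 4 box H/ACA genes lay below the median of all genes with the deposited TPM, although Ddx21, Nop56, Nop58 and Dkc1 lay above it with quantile normalization. Of the 6 small subunit genes 3 lay above and 3 below it, and of the 4 polymerase subunits 2 lay above, the catalytic ones, joined by Polr1e with quantile normalization. The summed TPM of 5 proliferation genes (Mki67, Top2a, Ccnb1, Cdk1 and Pcna) was also lower in tumor #2, at 554 and 536 TPM against 987 and 1075 TPM in tumor #1, while Mki67 alone overlapped between the tumors (65.1 and 74.8 TPM in tumor #1, 65.5 and 56.4 TPM in tumor #2), and the part of these genes in the differences was not tested. Pseudogenes took 31.3% and 30.3% of all TPM in tumor #1 and 25.4% and 23.4% in tumor #2, and mitochondrial genes 6.61% and 8.67% against 14.4% and 15.6%, whose part was not tested either.

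The rest of the pathway was described by 5 lists written from general knowledge, with 112 genes found in the table and 111 tested. Their median difference between Tom+ and Tom- cells was -0.025, and 0 of 111 passed an adjusted p-value of 0.05 by limma. At an unadjusted p-value under 0.05, 3 were higher in Tom+ cells (2.04% of all genes tested) and 0 were lower (2.64%), so the number higher is near the background, and the 3 genes are given as values. Znhit6, an assembly factor of box C/D snoRNPs, was at 31.0 and 54.1 TPM in tumor #1, against 34.1 and 66.2 TPM in tumor #2, a difference of 0.86 (SE 0.15) with an unadjusted p-value of 0.0081 and an adjusted p-value of 0.936 by limma. Wdr75 (0.45, SE 0.13) and Heatr1 (0.50, SE 0.16) are proteins of the UtpA part of the small subunit processome, the part that Wdr43 belongs to. Wdr75 was at 81.3 and 107 TPM in tumor #1, against 85.2 and 122 TPM in tumor #2, and Heatr1 was at 48.6 and 62.0 TPM and at 40.5 and 64.4 TPM. For both, each Tom+ library was above each Tom- library, while Wdr43 differed by 0.041 (SE 0.13). The highest difference after that of Znhit6 was that of Mdn1, an ATPase that removes large subunit factors (0.54, SE 0.32), which was at 29.1 TPM in Tom- cells of tumor #1 and between 61.8 and 69.5 TPM elsewhere (1.06 in tumor #1 and 0.011 in tumor #2). The lowest values were those of C1d, a cofactor of the RNA exosome (-0.49, SE 0.29), and Znrd1, a small subunit of RNA polymerase I (-0.48, SE 0.31), both from tumor #2 (-0.94 and -0.96). C1d was at 30.1 and 29.4 TPM in tumor #1, against 64.5 and 33.2 TPM in tumor #2, and Znrd1 was at 16.0 and 15.9 TPM, against 26.6 and 13.2 TPM.

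List by list, the median difference between Tom+ and Tom- cells was -0.14 for 15 other RNA polymerase I genes, -0.022 for 8 snoRNP genes, 0.0037 for 33 genes of the small subunit, -0.034 for 42 genes of the large subunit and 0.020 for 13 genes of the RNA exosome. The polymerase median was 0.060 in tumor #1 and -0.19 in tumor #2, and the exosome median was 0.048 and -0.14. In the polymerase list 1 gene was higher (21.6% of all genes tested) and 5 were lower (29.5%) in Tom+ cells of both tumors, the latter near the background, with values from -0.48 to 0.48. Its highest was Polr1d, the partner of Polr1c in both polymerases, which was at 79.2 and 82.6 TPM in tumor #1, against 131 and 245 TPM in tumor #2 (0.060 and 0.90). Between the tumors, the polymerase list had a median of -0.37, with -0.10 in Tom- and -0.58 in Tom+ cells. Besides Polr1d, Twistnb, Znrd1 and Cd3eap, that list holds Polr2e, Polr2f, Polr2h, Polr2k, Polr2l, Taf1a, Taf1b, Taf1c, Taf1d, Ttf1 and Tcof1. Its values ran from -1.09 for Polr2h to 1.13 for Polr1d, so the median does not stand for RNA polymerase I alone. The large subunit list had a median of 0.12, which turned to -0.097 with median scaling and -0.039 with quantile normalization. Of the 111 genes, 78 lay below the median of all genes tested with the deposited TPM, 82 with median scaling, 68 with quantile normalization and 81 with protein-coding rescaling. Exosc6, the gene left untested, was listed at 0 in all libraries.

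**Figure D5:**
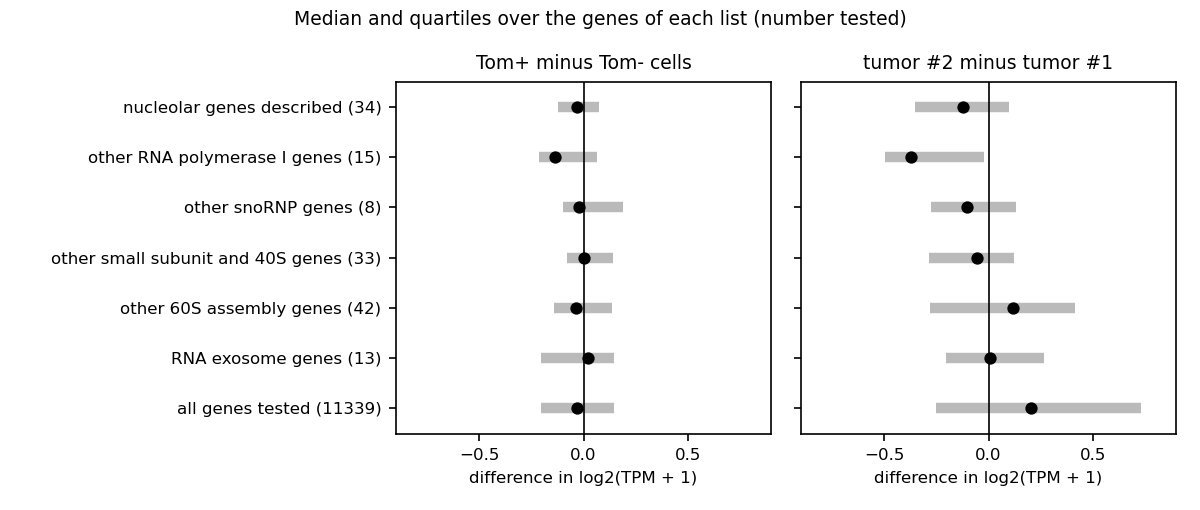
Median (point) and quartiles (bar) of the difference in log2(TPM + 1) over the genes of each list, with the number of genes tested in parentheses, for Tom+ minus Tom- cells on the left and tumor #2 minus tumor #1 on the right. On the left each list lies near 0, and on the right the median of each list is below that of all genes tested (0.20), which for the 60S list no longer holds with quantile normalization, with no filter on low values or with a mean TPM of at least 5.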

How the data were processed

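RNA of 4 sorted B220+ IgM+ spleen cell samples was sequenced. The authors trimmed single reads of 60 bases with Cutadapt and quantified them with Salmon (1.9 in the submitters' processing notes) against mouse transcripts of GRCm38. The values deposited are TPM per gene. Each library sums to 1000000, so the depth is unknown and no counting interval is given. How transcripts were summed to genes is not given in the sources used here. Symbols, types and positions came from GENCODE M21, which holds 34652 of 34866 identifiers.

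Genes reaching 1 TPM in 2 or more libraries were analysed as log2(TPM + 1) with limma 3.58.1 in R 4.3.3 (variance trend, Benjamini-Hochberg adjustment over 11339 genes). Tumor was kept as a block because both libraries come from the same mouse, as in the authors' paired test, and deviations of same-mouse libraries from the Tom- and Tom+ means correlated across genes (r = 0.626). The authors' test, which needs read counts, was not run. Pseudogenes with a TPM above 0 were assigned to their best matching protein-coding gene with BLAST 2.17.0 (at least 90% identity over 50% of the pseudogene). Alternatives were no block, another pseudocount, other filters on low values, no variance trend, 3 other scalings, pseudogenes added and each library or tumor left out. The fit was tested on simulated data. Python 3.11.15 and matplotlib 3.10.9 were used for tables and plots.

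Values in all libraries are given for genes with an unadjusted p-value under 0.05, the 5 largest differences per direction between Tom+ and Tom- cells (tumors of like sign) and between tumors (no overlap), the extremes of level and the subunits of 4 complexes, and in the other lists for genes with an unadjusted p-value under 0.05 and the 2 largest differences per direction. Other genes were named after their values were seen. The members and lists were chosen with earlier results of these data known. The identity of the locus that drives Cre and the levels of some marker genes are not reported here.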

Additional observations from a re-analysis of the deposited data

Results flagged for a closer look

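In 3 genes, Tom+ cells differed from Tom- cells in opposite directions in the tumors, by at least 0.2 in log2(TPM + 1) in each. Nop16 had -0.26 in tumor #1 and 0.31 in tumor #2. Rrs1 had 0.20 in tumor #1 and -0.50 in tumor #2. Gnl3 had 0.29 in tumor #1 and -0.25 in tumor #2. Each direction rests on 1 pair of libraries, and the difference between the tumors was not tested.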

How the results depend on the processing

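The count of 0 genes past an adjusted or unadjusted p-value of 0.05 between Tom+ and Tom- cells held in each alternative with a fit, including no replicate block (Tom status as the only term), which gave 0 of 34. Over all genes tested, calls at an unadjusted p-value under 0.05 fell to 66 higher and 74 lower without the block, from 231 and 299. Among the other pathway genes, the 3 such calls became 1 without the block or the variance trend, 2 with a mean TPM of at least 5, 4 with no filter and 5 with protein-coding rescaling. Of 306 differences of single genes refitted under alternatives, 6 turned direction, in 4 genes near 0: Npm1 to -0.0045 with pseudogenes added, Nolc1 to 0.015 and Bysl to 0.016 with protein-coding rescaling, and Polr1a to 0.0073 with median scaling, 0.00066 with quantile normalization and 0.027 with protein-coding rescaling. The median of the 34 genes turned from -0.031 to 0.022 with protein-coding rescaling and 0.0028 with median scaling, and was -0.012 without tumor #1 and 0.057 without tumor #2. Between tumors, the median moved from -0.12 to -0.34 with median scaling, to -0.042 with protein-coding rescaling and to -0.038 without Tom+ cells of tumor #2. Median scaling also took the genes below tumor #1 from 15 to 24. Leaving out each library in turn gave 8 to 12 genes above, 12 without Tom+ cells of tumor #1, and 16 to 21 below. Leaving out a library can only narrow the range of its tumor, so these counts could only stay or rise. Median scaling divided the libraries of tumor #1 by 0.939 and 0.928 and those of tumor #2 by 1.11 and 1.07. This division lowers tumor #2 against tumor #1 for nearly all genes. The cause of the remaining shifts was not tested. The libraries have an unknown depth, so low genes such as Rrp12 and Bysl carry an unknown counting error.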
